A study of Mus musculus with 81 samples.

Results

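BXD73, BXD80 and BXD103 are 3 recombinant inbred mouse lines whose livers had similar transcript profiles. They contributed 6 of the 81 arrays of the series, 1 for chow and 1 for high-fat diet in each line, and 3 of its 42 strains. The lines were chosen by the likeness of their measured profiles over these arrays, so every difference between them and the remaining strains is given as a description, with its size and standard error (SE) and no test. They were set against the 36 other strains that had an array on each diet (72 arrays), which were 34 further BXD lines and the parents C57BL/6J and DBA/2J. BXD50, BXD60 and BXD92a had an array on 1 diet only and entered no comparison.

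Each array held liver RNA pooled evenly over about 5 fasted male mice of 1 strain and 1 diet. The mice were 29 weeks old at sacrifice. The high-fat cohorts had been switched from chow at 8 weeks, and the chow cohorts stayed on chow. None of the strains carried an engineered allele by its label. A pool stands for a strain on a diet, so the spread between strains mixes genotype with the animals and the pool.

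BXD lines descend from crosses between C57BL/6J and DBA/2J and were inbred until each line carried a fixed mosaic of the parents' chromosomes. Genes whose level depends on a nearby variant therefore tend to follow 1 parent in each line. BXD80 and BXD103 were later renamed as substrains of BXD73 (BXD73a and BXD73b). Every SE and p here counts the 3 lines as independent strains. As substrains they may share most of their genotype, and such SEs and p-values are then too small. Liver makes and secretes a large share of plasma proteins, folds them in the endoplasmic reticulum with chaperones such as BiP, and switches between making and burning fat with feeding and fasting.

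Values are array scores on a scale set by the authors, with mean 8 and standard deviation (SD) 2 on every array, and differences are in units of that scale. It behaves like a log scale of unstated base, so no fold changes are given. Of 21765 genes, each read through its brightest probe set, levels near 6.69, the median of the array's 5222 negative control probe sets, cannot be told from background. The array medians lay between 7.66 and 7.81. The libraries looked like liver: the 12 hepatocyte-defining genes differed between the 3 strains and the other 36 by a median of 0.03 units, and transthyretin (Ttr) averaged 15.1 in both groups. An array each of DBA/2J and BXD63 carried pancreatic acinar transcripts, and none of the 6 arrays did: their mean over 21 acinar genes was 7.09 to 7.17 on high fat and 7.19 to 7.22 on chow, against medians of 7.10 and 7.18 in the other 36.

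The likeness on which the lines were picked was strongest between BXD80 and BXD103. Over all genes, the deviations of their strain means from the average strain correlated with r = 0.43, which ranked 3 among 741 pairs of strains. BXD73 and BXD80 had r = 0.36 and BXD73 and BXD103 had r = 0.34, ranks 8 and 10. The 108 pairs that joined 1 of the 3 to another strain had a median r of -0.03 and reached at most 0.22. The likeness was present on each diet, with r of 0.21 to 0.34 on high fat and 0.24 to 0.35 on chow. It also held between arrays of different diets: the chow array of one line against the high-fat array of another gave r between 0.15 and 0.32, while the 2 arrays of the same line gave 0.37 to 0.43.

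The response to diet was not alike in that way. Deviations of the high-fat minus chow difference correlated with r = 0.09 for BXD73 with BXD80, 0.09 for BXD73 with BXD103 and 0.01 for BXD80 with BXD103, ranks 83, 82 and 248 among the 741 pairs. Genes are not independent points, and arrays share dim probe sets and background, so these coefficients are descriptions of likeness only.

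**Figure D1:**
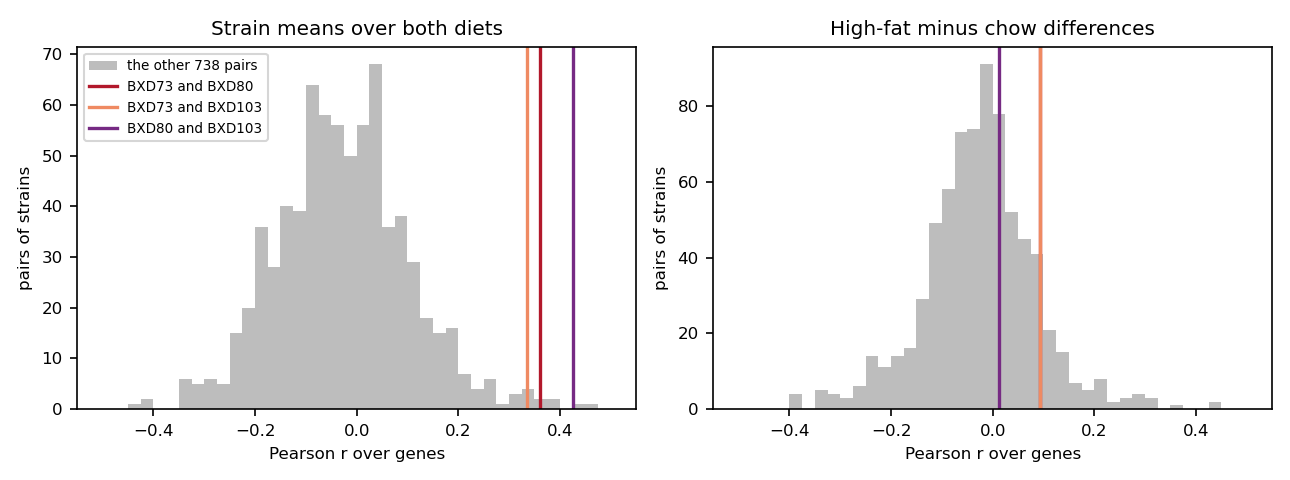
Histograms of Pearson r over genes for all pairs of the 39 strains, from strain means over both diets (left) and from high-fat minus chow differences (right). Vertical lines mark the 3 pairs among BXD73, BXD80 and BXD103. On the left they lie at 0.34 to 0.43 in the upper tail, and on the right at 0.01 to 0.09, where the lines of BXD73 with BXD80 and BXD73 with BXD103 coincide.

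Likeness could also be read from genes that separate the parents. In 114 genes C57BL/6J and DBA/2J differed by at least 1 unit in the same direction on each diet. Each line was assigned to the nearer parent at each of these genes. BXD80 and BXD103 lay on the same side at 105 of the 114 (92.1%), BXD73 and BXD103 at 95 (83.3%) and BXD73 and BXD80 at 92 (80.7%). The 663 other pairs lay on the same side at a median of 57.9% and at no more than 85.1%. All 3 lines lay on the same side at 89 genes, 46 times with C57BL/6J and 43 times with DBA/2J. BXD73 was the line apart at 16 of the remaining genes, BXD80 at 6 and BXD103 at 3. These genes were part of the profiles on which the lines were chosen.

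No gene set the 3 lines fully apart from the others. The strict rule asked that on each diet all 3 arrays lie beyond all 36 arrays of the other strains on the same side, with strain means at least 0.5 units apart. It found 0 genes higher and 0 genes lower of 21765 (0.0% each), and 0 without the size limit. On high fat alone 1 gene lay above and 5 below all 36 arrays at any size, and on chow alone 5 lay above and 6 below.

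Strain means over both diets gave a few genes. At any size, the 3 means lay above those of all 36 other strains at 2 genes (0.00919%) and below them at 14 (0.0643%). By size alone, with no demand on rarity, 67 genes (0.308%) were 0.5 units or more above the average of the others and 85 (0.391%) as far below. A looser rule joined both: strain means beyond those of all but 3 of the other 36 strains, and at least 0.5 units apart. It found 7 genes higher (0.0322% of all genes) and 22 lower (0.101%), 29 in all (0.133%), and without the size limit 97 higher (0.446%) and 142 lower (0.652%). At 6 of the 29 no other strain reached the level of the 3 lines, at 5 genes 1 strain did, at 12 genes 2 did and at 6 genes 3 did. Neither parent did so at any of the 29, so all of them lay outside both parents' levels. The parents were among the 36 strains that the rule used, so this follows in large part from the rule. Some margins were small. The lowest of the 3 lines averaged 7.04 at Rdh18, against 7.03 in C57BL/6J. At Acacb the highest of them averaged 9.52, against 9.55 in DBA/2J. BXD44 and BXD71 reached the level most often, at 5 genes each, and 12 of the 36 strains at none. Among the arrays of the strains with 1 diet, which the rule did not use, none reached the 3 lines' range at 14 of the 29 genes. At the rest of the 29 at least 1 of these arrays did. The same share over all genes was not computed, so the count is no result about these genes. The threshold cut through a continuum: H2-T24 at 0.52 and Rpp40 at -0.51 units were just inside, H2-DMb2 at 0.48 and 2210023G05Rik (now Ces2g, a carboxylesterase) at -0.49 just outside, and Sae1 at -0.76 and Fgf21 at 0.53 missed it because 4 other strains reached their level. Leaving out 1 of the 3 lines loosened the rule and gave 11 to 20 genes higher and 31 to 41 lower.

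Mme encodes neprilysin, a cell-surface metalloprotease that cleaves small peptides, and had the largest difference among the lower genes. On high fat it read 7.18 in BXD73, 7.88 in BXD80 and 7.04 in BXD103, against 7.30 to 11.19 in the other 36 with a median of 10.67. On chow it read 7.41, 7.99 and 7.75 in the 3 lines in the same order, against 7.38 to 11.45 with a median of 10.55. The difference of strain means was -2.76 ± 0.50 (SE, 3 strains against 36). BXD45 alone reached that level, and 3 of the 36, BXD45 included, came to within 0.5 units. C57BL/6J averaged 10.65 and DBA/2J 9.00, so the 3 lines lay well under the lower parent.

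Gnai1 encodes an inhibitory G protein alpha subunit. Its values were 7.44, 7.10 and 7.0 on high fat in BXD73, BXD80 and BXD103, against 7.44 to 9.73 in the others, and 7.67, 7.14 and 7.59 on chow, against 7.51 to 9.59. On high fat no other array reached the 3 lines, and on chow 1 did. No other strain mean reached them, and the nearest stood 0.15 units above them. The difference was -0.95 ± 0.22 (SE).

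Tmem184c encodes a transmembrane protein. It read 10.23, 9.84 and 9.90 on high fat in the 3 lines, against 9.99 to 11.29 in the others, and 9.76, 9.55 and 9.47 on chow, against 9.81 to 11.20. On chow no other array fell into the range of the 3 lines, and on high fat 2 did. The difference was -0.94 ± 0.17 (SE). Without BXD73, Tmem184c met the strict rule, the only gene among those of at least 0.5 units to do so when 1 of the lines was left out.

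**Figure D2:**
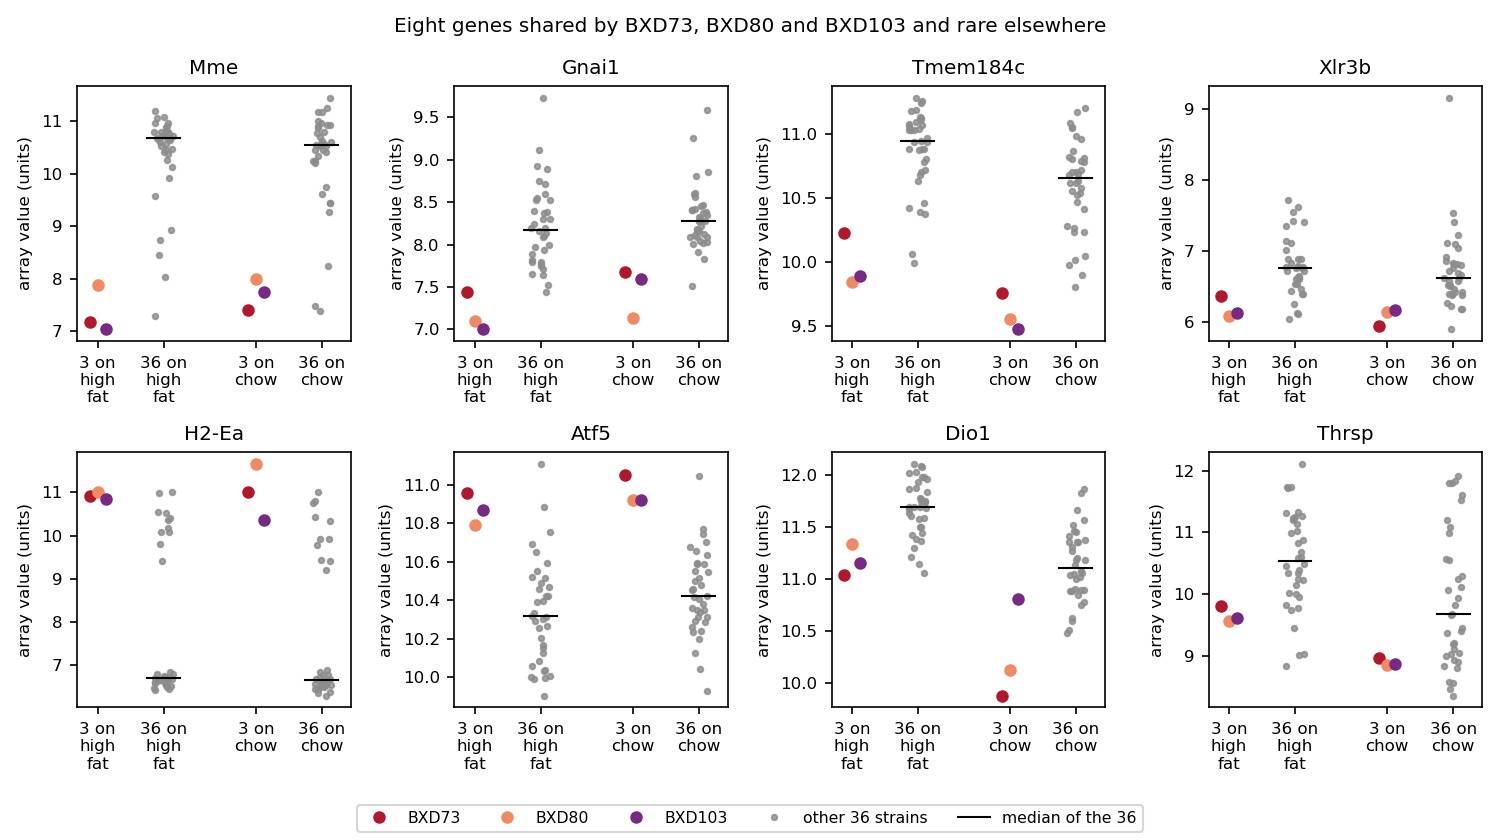
Array values (units) of 8 genes, with BXD73, BXD80 and BXD103 as coloured points left of the other 36 strains (grey, bar at their median), high fat before chow. Mme, Gnai1, Tmem184c, Xlr3b, Dio1 and Thrsp lay low in the 3 strains. H2-Ea split the other strains into a group near 6.7 and a group near 10, with the 3 strains in or above the upper group.

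Xlr3a, Xlr3b and Xlr3c, neighbouring X-linked lymphocyte-regulated genes, were the only run of neighbours among the 29 genes. Their strain means differed by -0.59 ± 0.21, -0.62 ± 0.21 and -0.53 ± 0.19 units (SE), and no other strain reached the 3 lines. The margins to the nearest other strain were 0.01, 0.06 and 0.03 units. All 3 averaged under the negative-control median in these lines, and the copies are so alike that probe sets may read more than 1 of them, so the 3 genes are given as 1 uncertain observation. Olfr1033, an odorant receptor gene, was the other member of the 29 that averaged under the negative controls.

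H2-Ea encodes the alpha chain of the mouse class II molecule E, which C57BL/6 mice do not make. On high fat the 3 lines read 10.92, 10.998 and 10.84, against 6.44 to 11.02 in the others with a median of 6.70. On chow they read 11.005, 11.66 and 10.37, against 6.30 to 11.005 with a median of 6.67. C57BL/6J averaged 6.605 and DBA/2J 9.86. The other strains formed 2 groups, and 11 of the 36 lay above the parental midpoint, so a high level was common and its upper end was rare. Strain means differed by 3.26 ± 0.93 (SE), and BXD62 and BXD68 reached the 3 lines.

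Of the 10 other class II genes measured, all 3 lines lay above the median of the other 36 at 6 and below it at 1, with a median difference of 0.11 units, against 0.01 over all genes. All 3 lines lay above that median at 21.2% of all genes and below it at 17.1%. Cd74, the invariant chain, differed by 0.59 ± 0.28 units and H2-DMb2, part of the peptide-loading factor, by 0.48 ± 0.12, with 6 and 1 other strains reaching the 3 lines. H2-T24, a class I-like gene, differed by 0.52 ± 0.15. T and natural killer cell markers were above the median in all 3 lines at 14 of 21 genes and below at 0, with a list median of 0.11. Their mean over the 21 genes was 7.12, 7.25 and 7.24 on high fat in BXD73, BXD80 and BXD103, against 6.97 to 7.30 in the others. On chow it was 7.24, 7.24 and 7.19, against 6.92 to 7.55. By this mean, 35 of the other 36 strains lay below all 3 lines on chow and 1 above. On high fat 22 lay below all 3 and 2 above. Ccl5, a chemokine of T cells, and Cd3e, a chain of the T cell receptor complex, differed by 0.41 ± 0.16 and 0.27 ± 0.09 units with 6 and 5 other strains as high, and 9 of the 21 averaged under the negative controls over all arrays. Macrophage and Kupffer cell markers were above the median in all 3 lines at 10 of 25 genes and below at 1, with a list median of 0.06. Their mean over the 25 genes was 9.08, 9.13 and 9.12 on high fat, against 8.77 to 9.68 in the others, and 9.18, 9.26 and 8.96 on chow, against 8.61 to 10.14. B and plasma cell markers were above at 6 of 14 and below at 1, with a list median of 0.06. Their mean was 7.81, 7.85 and 7.81 on high fat, against 7.57 to 7.93, and 7.97, 8.05 and 7.91 on chow, against 7.77 to 8.22. The part of any of these cells in the class II values was not tested. In whole liver, more cells of a type and more RNA per cell cannot be told apart.

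The remaining genes higher in the 3 lines were Cdk5rap1, which modifies mitochondrial transfer RNAs, Rhbdf1, an inactive rhomboid protein, Rdh18 (now Rdh18-ps in RefSeq), Il22ra1, a receptor chain for interleukin 22, and Atf5, a stress-responsive transcription factor. Cdk5rap1 differed by 0.97 ± 0.27 units and ranged from 9.52 to 9.79 over the 6 arrays, against a median of 8.56 on high fat and 8.41 on chow in the others. Atf5 was the only one that no other strain mean reached: it read 10.96, 10.79 and 10.87 on high fat, against 9.90 to 11.11, and 11.05, 10.92 and 10.92 on chow, against 9.93 to 11.04. Its difference was 0.53 ± 0.11, and the nearest other strain stood 0.01 units lower. Rhbdf1 at 0.64, Rdh18 at 0.57 and Il22ra1 at 0.56 units were each reached by 2 other strains.

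Among the lower genes, 3 belonged to the fatty acid and triglyceride synthesis list. Thrsp (a nuclear and cytosolic protein that promotes lipogenesis), Elovl6 (an elongase of saturated fatty acids) and Acacb (the mitochondrial acetyl-CoA carboxylase) met the looser rule. Thrsp read 9.82, 9.56 and 9.61 on high fat, against 8.83 to 12.11 with a median of 10.54, and 8.96, 8.85 and 8.87 on chow, against 8.36 to 11.92 with a median of 9.67. The 3 lines lay close together inside the wide range of the others, and BXD43, BXD66 and BXD81 were as low. Thrsp differed by -0.96 ± 0.37 units, Elovl6 by -0.66 ± 0.21 and Acacb by -0.57 ± 0.19. Over the 25 genes of the fatty acid and triglyceride synthesis list, all 3 lines lay below the median of the others at 12 and above it at 4, with a list median of -0.13. Lpin1, a phosphatidate phosphatase, differed by -0.73 ± 0.37, but 8 other strains reached it. Scd1, Fads1 and Agpat2 differed by 0.02, -0.01 and -0.02 units. In the fatty acid oxidation list, all 3 lines were above the median at 9 of 27 genes and below at 0, with a list median of 0.08 and Fgf21, a fasting hormone, at 0.53 ± 0.21.

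Dio1, the deiodinase that activates thyroxine in liver, is induced by thyroid hormone, as is Thrsp. It read 11.04, 11.34 and 11.16 on high fat, against 11.06 to 12.11 with a median of 11.70, and 9.88, 10.13 and 10.81 on chow, against 10.49 to 11.86 with a median of 11.11. The strain means differed by -0.69 ± 0.13 (SE), and BXD83 alone was as low. Adipor2, a hepatic adiponectin receptor, differed by -0.56 ± 0.15. Keg1, at -0.72 ± 0.20, Slc44a3, a choline transporter-like protein, at -0.67 ± 0.21, and Dhrs9, a retinol dehydrogenase, at -0.69 ± 0.22, were reached by 2, 3 and 1 other strains. The remaining lower genes were 9030619P08Rik, C330019L16Rik (a zinc finger gene, now Zfp976), Entpd4 and Rpp40, with differences between -0.84 and -0.51 units. C330019L16Rik was the only one of the 29 with a further probe set, which differed by -0.26, against -0.67 in the brightest.

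Of the endoplasmic reticulum stress and chaperone list, 2 genes met the looser rule: Sdf2l1, a partner of the chaperone BiP, and Hyou1, a nucleotide exchange factor for BiP. Sdf2l1 read 10.67, 10.12 and 10.30 on high fat, against 9.41 to 12.04, and 9.72, 9.70 and 10.01 on chow, against 9.61 to 11.73. Its difference was -0.61 ± 0.25 and that of Hyou1 -0.54 ± 0.18. BXD50 and BXD60, which the rule did not use, were as low. Sdf2l1 read 9.94 in BXD50 on high fat and 9.44 in BXD60 on chow, and Hyou1 10.42 and 10.18. In BXD92a on chow Sdf2l1 read 10.80 and Hyou1 10.92, above the 3 lines. Both parents were high in Sdf2l1, with 11.64 in C57BL/6J and 11.88 in DBA/2J. Ero1lb, an oxidase that forms disulphide bonds and is not on that list, also met the rule, with a difference of -0.58 ± 0.15.

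Of the 24 genes of the list, all 3 lines lay below the median of the other 36 at 20 and above it at 0, against 17.1% of all genes below and 21.2% above, and the list median was -0.26 units, the lowest of the 34 lists with at least 5 measured genes. Hspa5, which encodes BiP itself, read 13.03, 13.19 and 13.19 on high fat, against 13.02 to 13.98 with a median of 13.47, and 12.72, 13.10 and 12.88 on chow, against 12.91 to 13.85 with a median of 13.35. Its difference was -0.43 ± 0.11, and 2 other strains reached the 3 lines. Pdia3, a protein disulphide isomerase, differed by -0.40 ± 0.11, also with 2 other strains. Creld2 and Manf, small proteins of the same response, differed by -0.58 ± 0.22 and -0.46 ± 0.15, with 12 and 6 other strains as low. Trib3 and Atf4, stress response genes of the list, differed by 0.19 ± 0.09 and 0.06 ± 0.10. They were the only list genes with a positive difference. Atf3 and Ddit3, also stress response genes of the list, differed by -0.21 and -0.08. The heat shock list of the cytosol had a median of -0.12, with all 3 lines below the others' median at 5 of 18 genes.

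The mean score of the 24 genes was 10.999, 10.94 and 10.95 on high fat in BXD73, BXD80 and BXD103, against 10.78 to 11.59 in the others with a median of 11.18. On chow it was 10.69, 10.85 and 10.75, against 10.70 to 11.52 with a median of 11.05. BXD73 had the lowest value of all 39 strains on chow, and 34 of the other 36 strains lay above all 3 lines. On high fat 29 of the 36 did, and 4 lay below them. The count of genes with all 3 lines below the median was 18 on high fat alone and 17 on chow alone, against 17.2% and 16.1% of all genes. It was between 20 and 22 when each of the lines was left out, which makes the condition easier to meet: 25.5% to 28.4% of all genes then did.

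**Figure D3:**
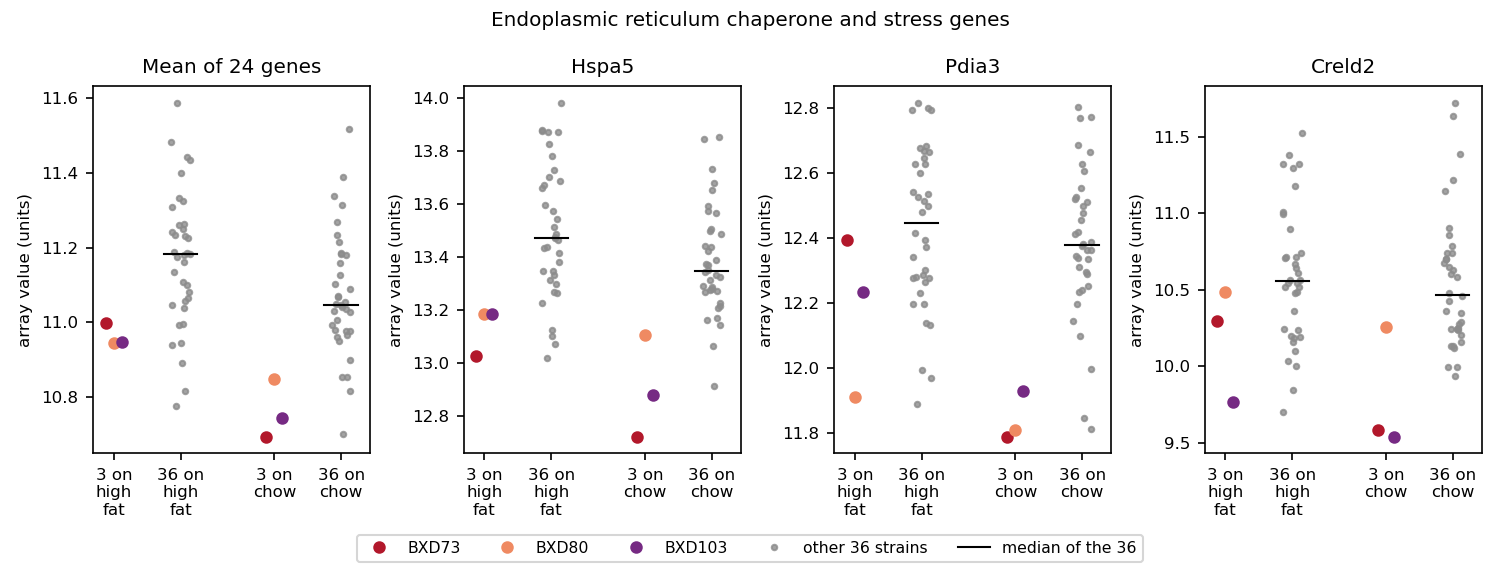
Array values (units) of the mean over 24 endoplasmic reticulum genes and of Hspa5, Pdia3 and Creld2, with BXD73, BXD80 and BXD103 left of the other 36 strains (bar at their median), high fat before chow. The 3 strains sit at the low end, most clearly on chow, where their 24-gene means of 10.69 to 10.85 face a median of 11.05.

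Many genes of this group share a promoter element, the endoplasmic reticulum stress element, which is bound by the factors that switch the genes on when unfolded protein accumulates. The promoter windows of the list genes were searched on either strand for its letters. These are CCAAT and CCACG with 9 bases of any kind between them. The windows ran from 250 bases before to 50 after the start of the gene in RefSeq (GRCm38.p6). The windows of 9 of the 21 list genes with an entry held it (Hspa5, Hsp90b1, Calr, Canx, Pdia6, Creld2, Derl3, Dnajc3 and Syvn1), against 37 of 27025 genes overall (0.137%). A related element, ATTGG and CCACG with 1 base between them, stood in the windows of 2 list genes, Dnajb11 and Herpud1, neither of which held the longer element, against 0.0444% of all genes. The letters of both elements were searched independently of each other, and a match is a description, not a measured site. Since many genes of this group share the element, its high share is a feature of the list, not of the 3 lines. The windows of Hspa5 (chr2:34771840-34772139, plus strand), Hsp90b1 (chr10:86705395-86705694, minus strand), which holds the element once on each strand, and Creld2 (chr15:88819396-88819695, plus strand) are shown 5′ to 3′ to let the element be seen beside the genes' values, with the element in capitals.
Hspa5: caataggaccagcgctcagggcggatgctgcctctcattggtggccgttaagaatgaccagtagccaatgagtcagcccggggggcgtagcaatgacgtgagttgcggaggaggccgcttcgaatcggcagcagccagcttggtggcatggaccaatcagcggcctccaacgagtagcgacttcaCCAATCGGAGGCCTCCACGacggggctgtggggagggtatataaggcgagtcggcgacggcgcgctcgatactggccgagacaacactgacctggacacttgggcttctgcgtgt
Hsp90b1: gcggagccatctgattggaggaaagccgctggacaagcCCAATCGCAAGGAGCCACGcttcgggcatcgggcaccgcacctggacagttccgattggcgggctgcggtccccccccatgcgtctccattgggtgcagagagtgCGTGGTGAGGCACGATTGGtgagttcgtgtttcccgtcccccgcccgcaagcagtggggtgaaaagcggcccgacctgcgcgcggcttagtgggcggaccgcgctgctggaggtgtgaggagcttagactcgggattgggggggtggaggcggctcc
Creld2: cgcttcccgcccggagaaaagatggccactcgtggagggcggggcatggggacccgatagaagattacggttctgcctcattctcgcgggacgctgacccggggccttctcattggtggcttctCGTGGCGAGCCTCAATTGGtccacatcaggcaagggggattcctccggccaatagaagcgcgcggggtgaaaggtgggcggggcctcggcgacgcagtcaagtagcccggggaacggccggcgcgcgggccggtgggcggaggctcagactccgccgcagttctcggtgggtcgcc
The 3 genes differed between the lines and the other strains by -0.43 ± 0.11, -0.25 ± 0.09 and -0.58 ± 0.22 units (SE). The 9 list genes with the element differed by -0.58 (Creld2) to -0.11 (Canx), with a median of -0.27. The 12 with a window but without it differed by -0.61 (Sdf2l1) to 0.19 (Trib3), with a median of -0.22. These ranges overlapped, and any part of the element in the low values was not tested.

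**Figure D4:**
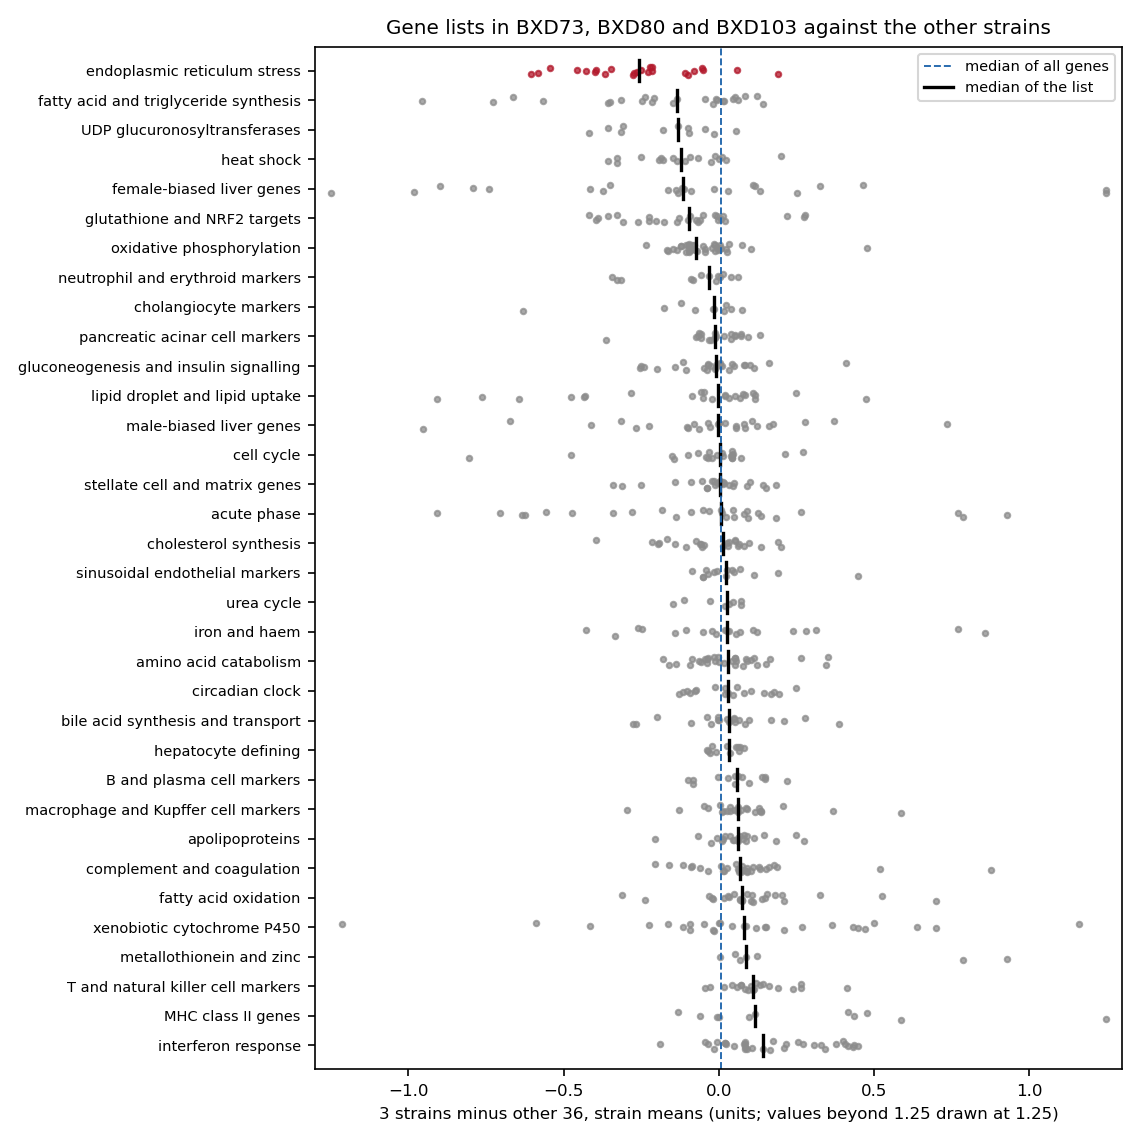
Difference of strain means, 3 strains minus the other 36 (units), for each measured member of 34 gene lists (points; the endoplasmic reticulum list in red), with the list median as a black bar and the median of all genes, 0.01, as a dashed line (values beyond the axis are drawn at its edge). The endoplasmic reticulum list has the lowest median, -0.26, and the interferon list the highest, 0.14.

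Some of the largest differences belonged to genes that vary widely among all strains and so were not rare. Cyp2b9, a female-biased cytochrome P450, differed by -2.12 ± 0.85 units with 8 other strains as low. Cyp17a1, a steroid hydroxylase, differed by 1.49 ± 0.56 and Abcd2, a peroxisomal fatty acid transporter, by 1.29 ± 0.53, with 8 and 5 other strains as high. Over the 24 female-biased liver genes, all 3 lines lay below the median of the others at 11 and above it at 7, with a list median of -0.12. Cyp2c44 differed by 1.16 ± 0.59, and Mt1 and Mt2, the metallothioneins, by 0.79 ± 0.47 and 0.93 ± 0.57. The interferon response list had the highest median of the 34, 0.14, with all 3 lines above the others' median at 20 of 33 genes. Glucuronosyltransferases had a median of -0.13, with Ugt2b37 at -0.42 ± 0.13 and Ugt2b38 at -0.32 ± 0.11. Nuclear-encoded genes of oxidative phosphorylation were below the median in all 3 lines at 20 of 38 genes, by small amounts, with a list median of -0.07 and Ndufa9 at -0.23 ± 0.10.

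The high-fat minus chow difference within these lines does not enter their strain means, and was tested. The lines were picked over arrays of both diets, so the diet tests may not be fully independent of that choice. Limma on paired high-fat minus chow differences called 255 genes at an adjusted p under 0.05 (1.17% of all genes), 92 higher (0.423%) and 163 lower (0.749%) on high fat, and 3131 genes at an unadjusted p under 0.05. In the other 36 strains the same fit called 11338 genes (52.1%). With 3 pools a diet, the median SE was 0.12 units, against 0.04 in the other 36. Of the 255 genes, 249 were called in the same direction in the other strains, which is 97.6% of the list of the 3 lines and 2.20% of the list of the others, and 0 were called in the opposite direction. On average over the 6 arrays, 44.7% of the called genes lay under the negative-control median, against 21.7% of all genes. The count depended on the setting: 35 genes were called without the dimmest genes, 1668 with array weights, 126 without pairing by strain, and 56, 54 and 54 without BXD73, BXD80 and BXD103 in turn.

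Among the 20 genes named by size, 10 rose and 10 fell, and 9 of them averaged under the negative controls on at least 1 diet. The same direction in all 3 lines was a condition of naming. At 19 of the 20 the change was larger in the 3 lines than in the other strains. Picking by size in these lines favours that. D630002G06Rik, annotated as a putative organic anion transporter, rose most: it read 7.96, 8.48 and 8.43 on high fat in BXD73, BXD80 and BXD103, against 6.45, 6.69 and 6.69 on chow. The mean rise was 1.68 ± 0.23 (SE, adjusted p = 9.1e-05, limma), and in the other strains the rise ranged from 0.52 to 2.47 units, higher in 36 of 36. Pparg, a lipid-sensing nuclear receptor that rises in fatty liver, read 10.12, 10.93 and 10.71 on high fat, against 9.04, 10.12 and 10.02 on chow, a rise of 0.86 ± 0.22 (adjusted p = 0.036). Dio1 was the only one of the 29 shared genes called for diet: it rose by 0.91 ± 0.23 (adjusted p = 0.036), by 1.16 and 1.21 in BXD73 and BXD80 and by 0.35 in BXD103, against 0.55 on average in the other strains. Without BXD73 or BXD80 its adjusted p was 0.30. Dsg1a, a desmosomal cadherin, rose by 0.98 ± 0.24 (adjusted p = 0.024). The other genes that rose were BC014805, LOC625360, Mett5d1, E030019B06Rik, Tbr1 and D0H4S114, by 0.72 to 1.07 units.

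Id1, an inhibitor of basic helix-loop-helix factors, fell by 0.997 ± 0.23 (adjusted p = 0.018), with 8.95, 8.45 and 8.73 on high fat, against 9.87, 9.75 and 9.50 on chow. Sds, the serine dehydratase that feeds serine into gluconeogenesis, fell by 0.83 ± 0.22 (adjusted p = 0.047), with 11.27, 10.94 and 11.11 on high fat, against 12.14, 11.90 and 11.77 on chow. In the other strains Sds changed by -0.06 units on average and was higher on high fat in 17 of 36. Its difference from the others, -0.77, did not pass the test over all genes. Ucn3 (urocortin 3, a peptide hormone) fell by 0.88 ± 0.14 (adjusted p = 0.00036), although near background at 6.46 to 6.82 on high fat and 7.42 to 7.601 on chow. Srgap3 fell by 1.008 ± 0.26 (adjusted p = 0.041), against -1.07 in the other strains, and V165-D-J-Cmu, an immunoglobulin mu transcript, fell by 1.015 ± 0.20 (adjusted p = 0.0036). Snord49a, 5430435G22Rik, 6330409D20Rik, Cpa3 and Ccr1l1 fell by 0.75 to 0.89 units. Snord49a rested on BXD103, which had 7.69 on high fat, against 9.52 on chow. Dsg1a, Pparg, Id1, Sds, Srgap3, BC014805 and D0H4S114 passed the threshold with all 3 lines and missed it when any 1 of them was left out.

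Diet calls in the 3 lines were few in the gene lists, as over all genes, of which 1.17% were called. With so low a share, 0 calls in a list of 24 or 25 genes is no result about that list. The endoplasmic reticulum genes had 0 calls among 24, with a list median of 0.20 units on high fat minus chow, against 0.07 in the other strains and -0.01 over all genes in the 3 lines. The 25 cholesterol synthesis genes also had 0 calls, although their median was 0.50, against 0.08 in the others. The B and plasma cell list had 2 of 14 genes lower, against 0.749% of all genes, and 9 of the 14 were lower in the other 36 strains. The 2 were Cd79a, a chain of the B cell receptor, at -0.70 ± 0.18 (adjusted p = 0.044) and Sdc1, a plasma cell marker that hepatocytes also make, at -0.38 ± 0.10 (adjusted p = 0.0496). Pparg, Sds and Id1 were the only other list members called.

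Whether the lines respond to diet differently from the other strains was tested as an interaction. Limma called 0 of 21765 genes (0%), and 724 genes (3.33%) had an unadjusted p under 0.05. The smallest adjusted p was 0.9999, and the median SE of this difference was 0.13 units. The 5 smallest p-values belonged to Ucn3, Mcpt2, 2310046O06Rik, Rab38 and Abo. Mcpt2, a mast cell protease, was set apart by 1 array: it read 5.57, 5.64 and 5.62 on high fat, against 8.15, 5.81 and 5.54 on chow, so that the BXD73 chow pool alone was high. Cpa3, a mast cell carboxypeptidase, was also highest in that pool, with 5.77, 5.82 and 5.88 on high fat, against 7.54, 6.25 and 5.96 on chow. Without BXD103 both were called, with adjusted p = 0.039 each by limma. Without BXD73 the diet effect of Cpa3 was -0.26 units with an adjusted p of 0.55. For the diet effects of D2hgdh, Dhtkd1, Bckdha, Bckdhb and Cox7a2l, mitochondrial genes followed throughout, the 3 lines and the others differed by -0.10 to 0.05 units, with exact two-sided permutation p between 0.33 and 0.85 over 9139 arrangements of strains (adjusted over the 5 genes, 0.64 to 0.85).

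The 3 lines also differed from each other. A moderated F-test in limma over the 78 arrays, with strain and diet as terms, picked 29 genes at an adjusted p under 0.05 (0.133% of all genes). The lines were picked for likeness of these same profiles, so the threshold serves only to pick genes for description, and no p of single genes is given. BXD73 was the line apart at 20 of the 29 genes, 11 times higher and 9 times lower, BXD103 at 8, each time higher, and BXD80 at 1. Those of BXD103 were the small nuclear or nucleolar RNAs Rnu12, Snord118 and Snora69, the mitochondrial ND3 and ND1, and Ipo7, Ppdpf and Abhd14b. The Ipo7 probe set used is described as a small nucleolar RNA. The other Ipo7 probe set was not higher in BXD103, at 10.30, against 10.53 in BXD73 and 10.39 in BXD80. The 2 arrays of the line apart lay outside those of the other lines at all 29. None of the 29 genes of the looser sharing rule was among them. BXD80 minus BXD73 passed the same threshold at 15 genes, BXD103 minus BXD73 at 18 and BXD103 minus BXD80 at 6.

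**Figure D5:**
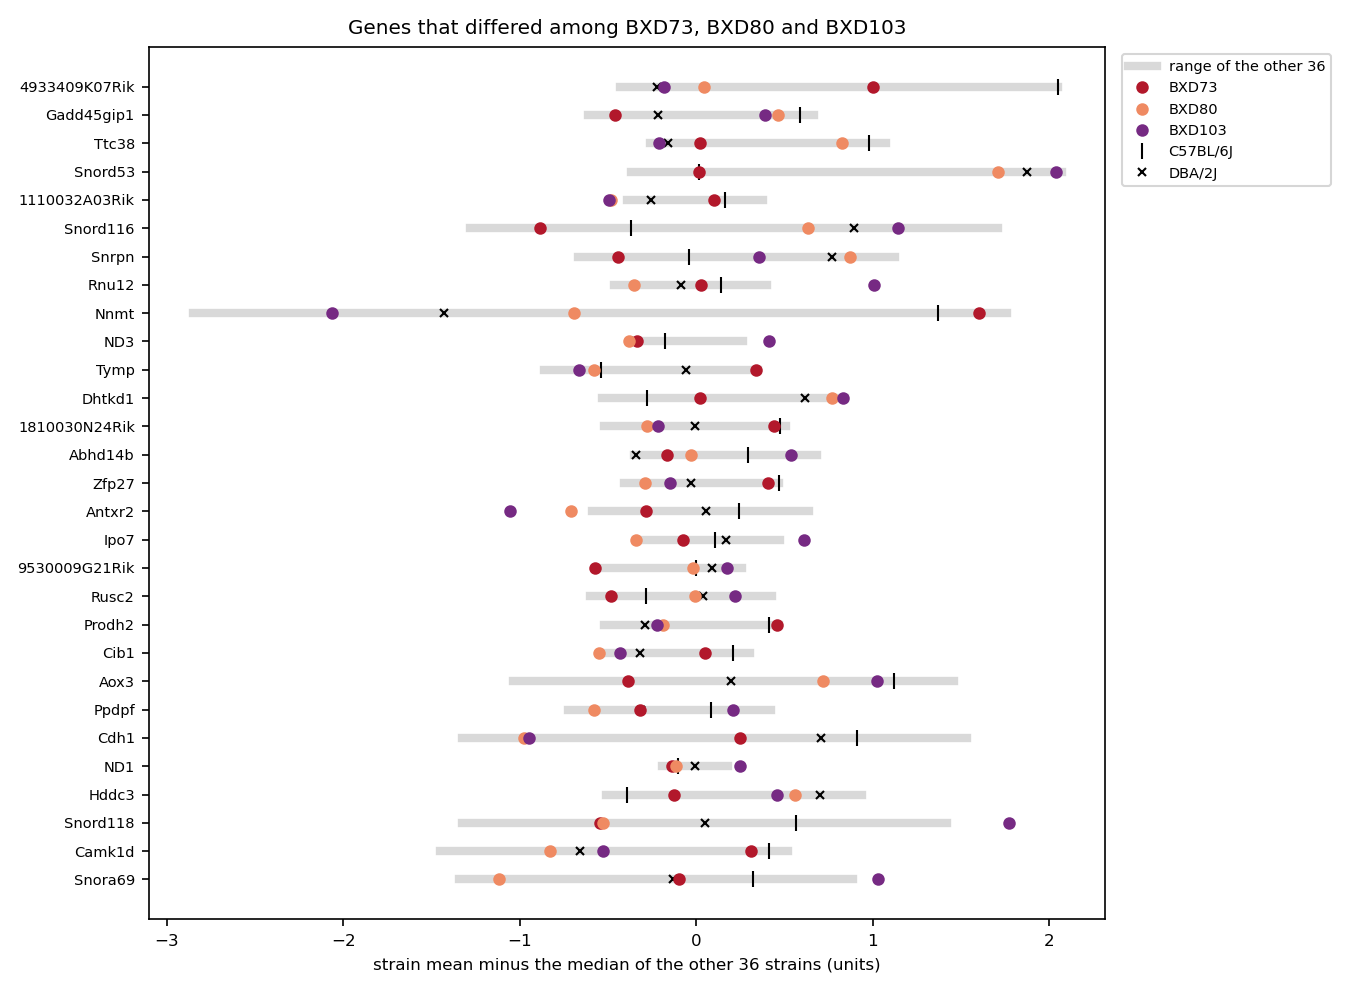
Strain means of the 29 genes picked for differences among BXD73, BXD80 and BXD103, as distance from the median of the other 36 strains (units). Grey bars span the other 36 strains, vertical ticks mark C57BL/6J and crosses DBA/2J. BXD73 is the strain apart at 20 of the 29 genes and BXD103 at 8, where it lies to the right of the other lines.

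Some of the splits among the lines followed the nearer parent. The parents differed by at least 0.5 units at 15 of the 29 genes. At 14 of these the line apart was nearer to one parent and the others to the other. The share of all genes with such a parental difference is not given here. The count is therefore no trait of these genes. Nearness also does not mean a parental level. At Snord118, BXD73, BXD80 and BXD103 averaged 8.70, 8.71 and 11.02, against 9.81 in C57BL/6J and 9.29 in DBA/2J. At 4933409K07Rik, on chromosome 4, BXD73 read 8.86 on high fat and 9.00 on chow, BXD80 7.96 and 7.99, and BXD103 7.78 and 7.71, with 9.98 in C57BL/6J and 7.71 in DBA/2J. Gadd45gip1, a mitochondrial ribosome-associated protein, was lower in BXD73, with strain means of 9.47, 10.40 and 10.32 in BXD73, BXD80 and BXD103. At Ttc38, BXD80 was the line apart, with 10.76, against 9.96 in BXD73 and 9.72 in BXD103, and 10.91 in C57BL/6J and 9.78 in DBA/2J.

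Nnmt, which methylates nicotinamide, had the widest spread. It read 12.39 on high fat and 12.50 on chow in BXD73, 9.88 and 10.42 in BXD80 and 9.10 and 8.47 in BXD103, with 12.21 in C57BL/6J and 9.42 in DBA/2J. BXD73 thus had the C57BL/6J level, and BXD103 that of DBA/2J or below. It was not picked when BXD73 or BXD103 was left out.

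Among the 29 genes, 8 lay in runs of neighbours. On chromosome 7, Snrpn and the small nucleolar RNA Snord116, which lie in the imprinted region of the Prader-Willi syndrome, were both low in BXD73: Snrpn averaged 7.75, 9.06 and 8.55 in BXD73, BXD80 and BXD103 and Snord116 6.64, 8.16 and 8.67. Snord116 is a cluster of near-identical copies read by 24 probe sets, so its level is uncertain. On chromosome 2, Dhtkd1, an enzyme of lysine breakdown, averaged 11.26 in BXD73, against 12.01 in BXD80 and 12.07 in BXD103, with 10.96 in C57BL/6J and 11.86 in DBA/2J. Its neighbour Camk1d, a calmodulin-dependent kinase, was higher in BXD73, at 10.58, against 9.44 and 9.74. Cib1 and Hddc3 on chromosome 7 formed a further pair. D2hgdh, Bckdha, Bckdhb and Cox7a2l were not among the 29. Chromosomes and neighbours are those of RefSeq GRCm38.p6.

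The mitochondrial transcripts ND3 and ND1 were higher in BXD103 than in the other lines, with ND3 at 14.27 on high fat and 14.26 on chow, against 13.46 and 13.48 in BXD80 and 13.65 and 13.38 in BXD73. ND3 has 2 probe sets, and with the more variable of them it was not picked. Rnu12, part of the minor spliceosome, averaged 9.52 in BXD103, against 8.16 in BXD80 and 8.54 in BXD73, above the highest of the other 36 strains. Snord53 was low in BXD73, with 8.19, against 9.88 and 10.21 in BXD80 and BXD103. At 1110032A03Rik, BXD73 averaged 10.91, against 10.33 and 10.31.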

How the data were processed

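Liver RNA of fasted male mice, pooled over about 5 animals per strain and diet per the labels' protocols, was hybridised to Affymetrix arrays, and Affymetrix Expression Console is the tool named in the submitters' processing notes. The deposited values have a mean of 8 and an SD of 2 on every array, and are treated as scores on a log-like scale whose base is not given in the sources used here. Replicates within a strain and diet were pooled by the authors. The p-values of the diet tests therefore measure against the spread of the diet difference between strains. The F-test among the lines has strain as a term. It measures against the spread between the 2 arrays of a strain once the average diet effect is taken out.

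Of 35556 probe sets, 25096 carried 1 gene symbol. The probe set with the highest mean was kept per symbol, which left 21765 genes. RefSeq (GRCm38.p6) held 17961 symbols as current and 2758 as synonyms. Strain means over both diets were compared in limma 3.58.1 (R 4.3.3) for differences and SEs. Diet effects were fitted on paired high-fat minus chow differences of 39 strains, and differences among the 3 lines on 78 arrays with strain and diet as terms, each with eBayes and Benjamini-Hochberg adjustment over all genes. Pairing rests on the strain names: the 2 arrays of a strain correlated above 0.1 in 37 of 39 strains (median r = 0.34). The fits were tested on simulated data.

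Named genes were the 15 largest shared differences in each direction, the 10 largest diet effects in each direction with all 3 lines in the same direction, the 5 smallest interaction p-values, the 10 smallest F-test p-values, neighbours with at most 10 measured genes between them, up to 4 members of each of 35 gene lists, and 5 mitochondrial genes. Ttr, Hspa5, Hsp90b1, Pdia3, Atf4, Trib3, Scd1, Fads1, Agpat2, Cd79a, Sdc1, Ero1lb, Adipor2, Entpd4, Camk1d, Cib1, Hddc3 and ND1 were named after their values were seen. Lines, lists and rules were chosen with earlier results of these data known. The carboxylesterase list had 1 of 14 members measured and was not used. Alternatives were the highest-variance probe set, median centring, removal of the dimmest genes (lowest tercile of mean level), array weights, removal of strains, and a fit without pairing. Arrays do not give counts, so their number limits the precision.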

Additional observations from a re-analysis of the deposited data

How the results depend on the processing

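Counts of the strict sharing rule stayed at 0 under the other probe set, median centring, removal of dim genes, removal of strains, all 81 arrays and both size limits. They were 1 higher and 5 lower with strain means beyond all 36, 7 and 22 beyond all but 3, and 0 higher and 0 to 1 lower with 1 of the lines left out. The looser rule gave 97 higher and 142 lower with no size limit, 1 and 2 with 1 unit, and 11 to 20 higher and 31 to 41 lower with 1 line left out. Without the dimmest genes the profile correlations became 0.43 (BXD73 and BXD80), 0.39 (BXD73 and BXD103) and 0.50 (BXD80 and BXD103). The diet count of 92 higher and 163 lower became 12 and 23 (35 in all) without dim genes, 661 and 1007 (1668) with array weights, 40 and 86 (126) without the replicate block, and 15 to 22 and 34 to 39 (54 to 56) with 1 line left out. The interaction count of 0 became 2, both lower, without BXD103, and ranged from 0 to 2 with 1 line left out. The 29 genes picked for differences among the lines became 93 with array weights, which held all 29, and 5 to 17 with 1 line left out. Array weights could not be applied to counts that rank arrays. Of the named genes that were called, recomputed values kept the call 153 times and lost it 58 times for diet (20 genes), and kept it 96 times and lost it 14 times among the lines (11 genes). No called diet value reversed its direction. The F-test among the lines carries no direction, so a reversal could not be seen there. The cause of these shifts was not tested. The looser rule under other settings, the single-diet and list counts and the alternatives of the exact tests were chosen after seeing the data. Brightness limits what can be said: dim genes carried 44.7% of the diet calls. With 3 pools a diet and a spread shared by all 39 strains, the median SE was 0.12 units. The unstated log base allows no fold change.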
